A study of Homo sapiens with 6 samples.

Results

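The interferon response and MHC class I genes were followed here in IGROV1 cells that had become resistant to the PI3K inhibitor GDC0032 (IGROV1Res), set against the sensitive cells they came from (IGROV1Sen). The set is a list of 48 genes: the class I chains, their peptide-loading partners, interferon receptors, transcription factors and interferon-induced effectors. They were matched by gene symbol and Ensembl identifier to a table of 14646 counted genes, and 44 of the 48 were found there. IFIH1 and OAS1, which sense double-stranded RNA, SAMD9, an antiviral effector, and UBE2L6, which carries ISG15 to its substrates, were not among the counted genes.

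IGROV1 is a human ovarian cancer cell line with mutated PIK3CA, the gene of the PI3K catalytic subunit p110α, and GDC0032 (taselisib) is a PI3K inhibitor that spares the p110β isoform. IGROV1Res is a line derived by continuous exposure to rising GDC0032, so all resistant libraries come from 1 such line. The labels mark both groups UT without saying what it stands for, and it was read as no GDC0032 in the medium. In the paper's methods, cells for RNA sequencing received either GDC0032 or DMSO. The labels do not say whether UT means the DMSO cells. Each group had 3 libraries of single-end 60-bp reads. Nothing in the labels ties them to separate cultures. The p-values therefore describe the spread of these libraries alone, which may be technical.

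Type I interferons bind IFNAR1 and IFNAR2, and interferon gamma binds IFNGR1 and IFNGR2. Both signal through STAT and IRF transcription factors, which bind interferon-stimulated response elements or gamma-activated sequences in the promoters of their targets. Among the targets are genes that block viruses and the MHC class I genes, whose products show peptides from inside the cell to cytotoxic T cells. In cancer cells, loss of class I display is a known way of escaping T cells.

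Total counts were 13809141 to 14179886 per IGROV1Res library and 12808922 to 15241394 per IGROV1Sen library, so 3 counts stood for 0.212 to 0.217 CPM in IGROV1Res and 0.197 to 0.234 CPM in IGROV1Sen. Levels are CPM, the counts of a gene relative to the library total after scaling by TMM (trimmed mean of M-values). In bulk RNA, fewer expressing cells and less RNA per cell cannot be told apart. Mitochondrial genes took 6.94% of counts in IGROV1Res replicate 3 and 7.02% in IGROV1Sen replicate 1, against 10.1 to 12.8% in the other 4 libraries. IGROV1Sen replicates 2 and 3 were closer to each other than any other pair within a group, at a chi-square of 1.47 per degree of freedom over genes, while the other pairs stood at 11.9 to 32.7. Calls that change without these libraries, or with replicates 2 and 3 of IGROV1Sen summed, are given beside the genes. PAX8, a transcription factor of the Müllerian epithelium, averaged 819 CPM in IGROV1Res and 832 CPM in IGROV1Sen. Of the 8 epithelial markers 6 were counted, with a summed level of 2000 to 2400 CPM in IGROV1Res and 1370 to 1520 CPM in IGROV1Sen. The keratins KRT8 (log2 fold change of IGROV1Res over IGROV1Sen 2.75, adjusted p = 5.13e-05) and KRT18 (1.85, adjusted p = 1.23e-05) and the adhesion molecule EPCAM (1.38, adjusted p = 0.0351) rose, and KRT19 did not pass (-0.18, adjusted p = 0.195). WT1 and MUC16, which many ovarian carcinomas express, were not among the counted genes. Of 13 leukocyte markers 10 were not counted, PTPRC, CD3E, CD14 and HLA-DRA among them, and the summed level of the other 3 was 14.1 to 20.3 CPM in IGROV1Res and 116 to 138 CPM in IGROV1Sen, nearly all from NCAM1, an adhesion molecule that many cancer cells also express. NCAM1 fell (-2.97, adjusted p = 1.6e-06). CD74 rose from very few counts (3.66, adjusted p = 0.000472), and IL3RA was too low to be tested. Of 6 fibroblast and endothelial markers 4 were counted, with a summed level of 197 to 212 CPM in IGROV1Res and 121 to 152 CPM in IGROV1Sen, while DCN and PECAM1 were not. Most of the sum was CDH5, at 165 CPM in IGROV1Res and 113 CPM in IGROV1Sen (0.54, adjusted p = 0.00146). PDGFRB (1.68, adjusted p = 0.000836) and LUM (5.65, adjusted p = 0.000356) rose too, and VWF did not pass (0.22, adjusted p = 0.571). LUM had 26, 28 and 15 counts in IGROV1Res and 1, 0 and 0 in IGROV1Sen. The part of these markers in the results was not tested.

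Of the 44 genes, all of which passed the filter on low counts, 8 were higher and 12 lower in IGROV1Res at an adjusted p under 0.05 (edgeR's quasi-likelihood test, adjusted over 13791 genes), and 24 did not pass. Over all tested genes 17.4% were called higher and 18.3% lower. The share of the set called higher was 18.2%, near that of all genes, and the share called lower was 27.3%. The median log2 fold change of IGROV1Res over IGROV1Sen was 0.02 over the 44 genes and -0.01 over all genes tested, with 23 of the 44 above 0 and 21 below. All IGROV1Res libraries lay above all IGROV1Sen libraries for 10 of the 44, against 23.4% of all genes, and below them for 13, against 24.5%. With a log2 fold change of at least 1 as a further condition, 1 of the 44 was higher (IRF1), beside 4.5% of all genes, and 5 were lower (HLA-B, IFITM1, HLA-F, PARP9 and OAS3), beside 5.88%. The set held changes in both directions. The class I chains had 1 gene higher and 3 lower, the peptide-loading and trimming genes 4 higher and none lower, and the 15 tested antiviral effectors none higher and 5 lower. The difference between these groups was not tested.

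**Figure D1:**
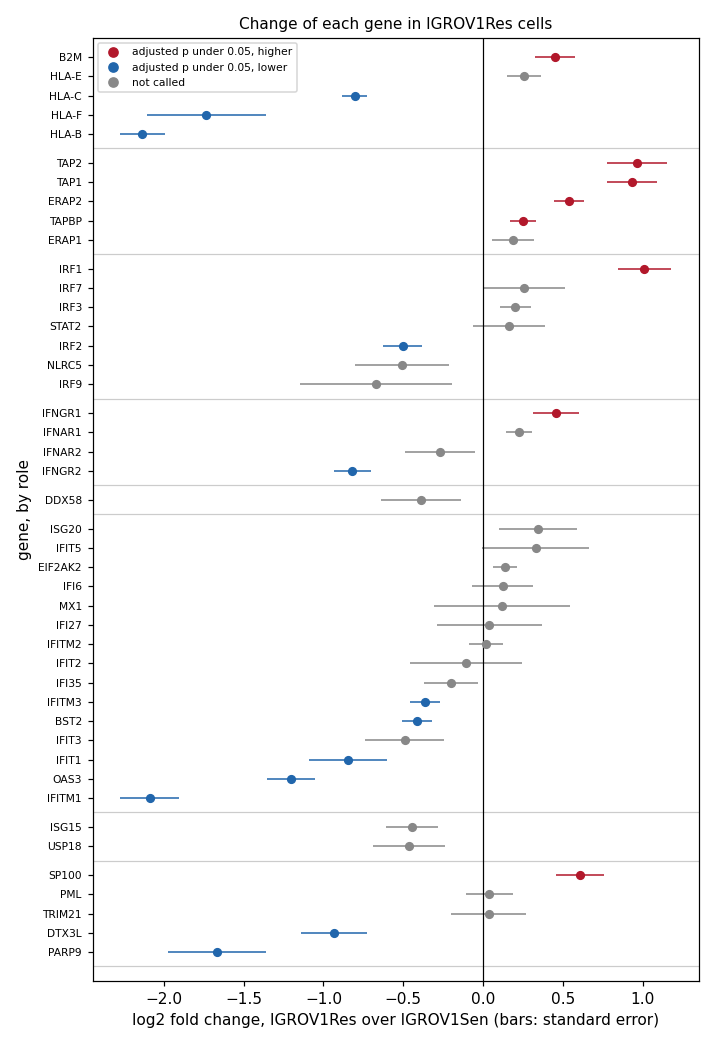
Log2 fold change of IGROV1Res over IGROV1Sen (x axis) with its standard error for the 44 tested genes, grouped by role and sorted within each group, with red for genes called higher, blue for genes called lower and grey for genes that did not pass. TAP1, TAP2, ERAP2 and TAPBP lie right of 0, while HLA-B (-2.13), IFITM1 (-2.09) and HLA-F (-1.73) lie farthest left.

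The class I molecule is made of a heavy chain, encoded by the HLA class I genes, and the light chain B2M. The heavy chains HLA-B (ENSG00000234745, chr6:31269491-31357188 on GRCh38) and HLA-C (ENSG00000204525, chr6:31268749-31272130) present peptides to T cells, HLA-E (ENSG00000204592, chr6:30489467-30494205) presents leader peptides to NK cells, and HLA-F (ENSG00000204642, chr6:29722775-29738528) is a low-level non-classical chain. HLA-B and HLA-C fell, B2M rose, and HLA-E did not pass the test. The promoters of HLA-B and HLA-C are shown first, because both genes fell. They run upstream of the RefSeq start on build GRCh38.p14, at chr6:31357189-31357339 (- strand) and chr6:31272093-31272252 (- strand), written 5′ to 3′ of the gene, with the CCAAT box (CCAAT or its reverse complement ATTGG) in capitals.
HLA-B: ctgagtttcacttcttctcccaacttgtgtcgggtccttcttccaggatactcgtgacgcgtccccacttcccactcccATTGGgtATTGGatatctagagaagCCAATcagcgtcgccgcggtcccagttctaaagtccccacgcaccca
HLA-C: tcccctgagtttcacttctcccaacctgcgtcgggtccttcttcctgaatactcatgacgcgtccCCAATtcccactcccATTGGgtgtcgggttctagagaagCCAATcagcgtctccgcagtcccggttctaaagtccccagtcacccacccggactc
Both stretches hold 3 CCAAT boxes, the site of the NF-Y factor that acts on class I promoters. A CCAAT box stood in 34.6% of all 35116 RefSeq promoter entries, each 250 bases before to 50 after a start, and in at least 1 entry of 39.7% of the 27305 genes that have any. Of the 38 genes of the set with an entry, 15 held it (39.5%), near the share of all genes. It stood in 3 of 8 called higher, B2M and TAP1 among them, and in 6 of 11 called lower. Its part in the fall of HLA-B and HLA-C was not tested.

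HLA-B was at 7.45, 10.9 and 9.67 CPM in IGROV1Res, against 42.5, 40.6 and 40.1 CPM in IGROV1Sen. The groups lay far apart, with a log2 fold change of -2.13 ± 0.14 (SE, adjusted p = 6.3e-06, n = 3 each, edgeR's quasi-likelihood test). In raw counts this was 102, 156 and 138 in IGROV1Res and 541, 615 and 573 in IGROV1Sen. HLA-C was at 161, 163 and 181 CPM in IGROV1Res, against 299, 292 and 293 CPM in IGROV1Sen, a log2 fold change of -0.80 ± 0.08 (adjusted p = 7.22e-05). Every IGROV1Res library was below every IGROV1Sen library for both genes. The annotated exons of HLA-B share 35 bases with HLA-C on the same strand. They also share 542 bases with the pseudogene AL671883.2 on the other strand, which was not among the counted genes. HLA-F had only 5, 4 and 4 counts in IGROV1Res and 12, 14 and 18 counts in IGROV1Sen, a log2 fold change of -1.73 ± 0.37 (adjusted p = 0.00581). Its exons share 535 bases with HLA-F-AS1 on the other strand, and the sources used here do not say whether the counting used strand. Class I genes differ between people and are similar to each other, so reads may have been split between them, or lost, in a way that these counts do not show.

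HLA-E was at 67.2, 79.3 and 85 CPM in IGROV1Res, against 69.8, 63.8 and 60.4 CPM in IGROV1Sen. IGROV1Res replicate 1 lay below IGROV1Sen replicate 1, so the groups overlapped, and the log2 fold change of 0.26 ± 0.10 did not pass (adjusted p = 0.0849). Without IGROV1Res replicate 1 it was 0.35 (adjusted p = 0.0212), and without IGROV1Sen replicate 1 it was 0.32 (adjusted p = 0.0404). B2M (ENSG00000166710, chr15:44711487-44718877) was at 213, 253 and 232 CPM in IGROV1Res, against 205, 154 and 153 CPM in IGROV1Sen. All IGROV1Res libraries were higher, though IGROV1Sen replicate 1 came close to the lowest of them, and the log2 fold change was 0.45 ± 0.12 (adjusted p = 0.0202). This call was lost with IGROV1Sen replicates 2 and 3 summed (adjusted p = 0.0835), and without IGROV1Res replicate 2 (0.0829), IGROV1Sen replicate 2 (0.0838) or IGROV1Sen replicate 3 (0.0859).

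Per kilobase of exon, HLA-C had the highest level of the 4 heavy chains, at 67.3 CPM per kb in IGROV1Res and 118 CPM per kb in IGROV1Sen, and HLA-E stood at 25.9 CPM per kb in IGROV1Res and 21.7 CPM per kb in IGROV1Sen. HLA-B was below both, at 3.06 CPM per kb in IGROV1Res and 13.5 CPM per kb in IGROV1Sen, and HLA-F was lowest, at 0.0711 CPM per kb in IGROV1Res and 0.24 CPM per kb in IGROV1Sen. Summed over HLA-B, HLA-C, HLA-E and HLA-F, the heavy chains gave 237, 254 and 276 CPM in IGROV1Res, against 412, 398 and 395 CPM in IGROV1Sen. HLA-B made up 3.15, 4.3 and 3.5% of that sum in IGROV1Res and 10.3, 10.2 and 10.2% in IGROV1Sen. HLA-E made up 28.4, 31.2 and 30.8% in IGROV1Res and 16.9, 16.1 and 15.3% in IGROV1Sen. B2M stood at 0.901, 0.994 and 0.84 of the heavy-chain sum in IGROV1Res, against 0.497, 0.388 and 0.387 in IGROV1Sen. Thus the resistant cells held less heavy-chain RNA, of which a smaller share was HLA-B and a larger share HLA-E, and more B2M RNA beside it. These sums describe RNA of 4 genes, and surface class I was not measured here.

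**Figure D2:**
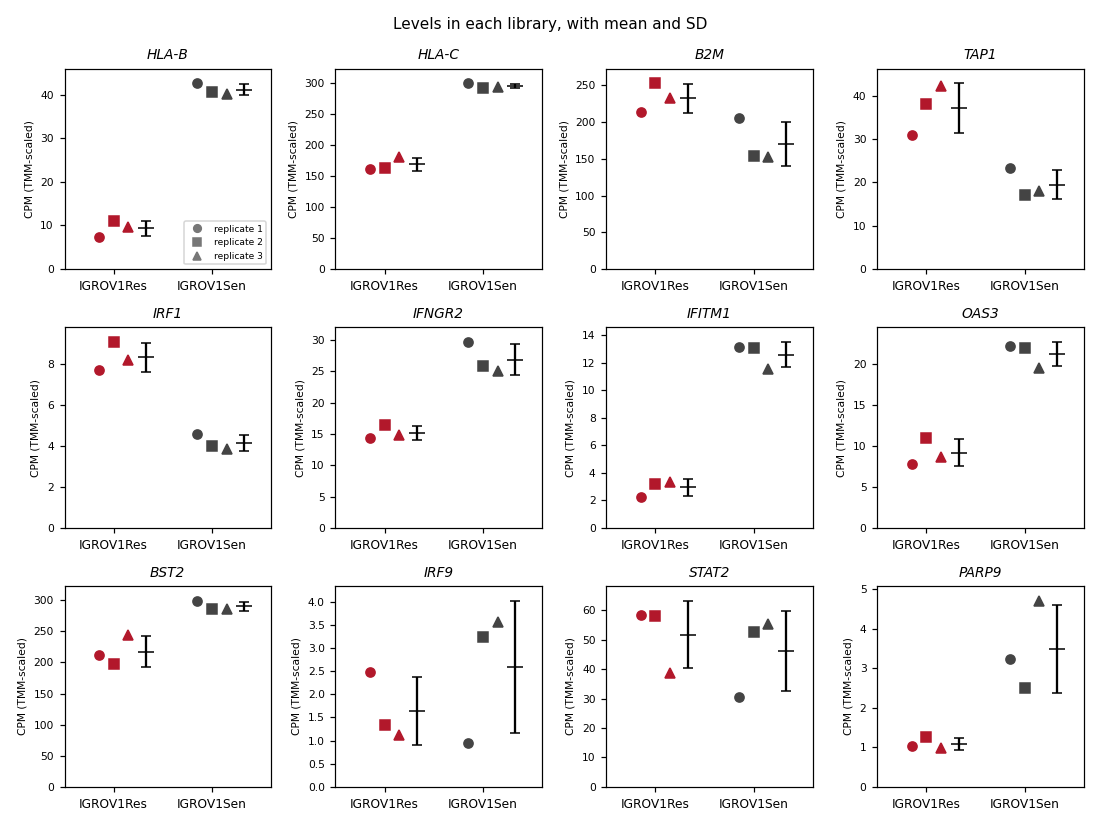
Level in CPM (y axis, from 0) of 12 genes in each library, with IGROV1Res in red left of IGROV1Sen in grey, a marker shape for each replicate number, and the mean and SD of 3 libraries beside the points. HLA-B lies at 7.45 to 10.9 CPM in IGROV1Res and 40.1 to 42.5 CPM in IGROV1Sen, TAP1 and IRF1 lie higher in IGROV1Res, and IRF9 and STAT2 overlap between the groups.

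The peptides that class I molecules carry are pumped into the endoplasmic reticulum by the TAP1 and TAP2 transporter, trimmed there by the aminopeptidases ERAP1 and ERAP2, and loaded with the help of tapasin (TAPBP). All 5 genes had a positive log2 fold change, and 4 of the 5 passed the test (80% called higher, beside 17.4% of all tested genes). TAP1 (ENSG00000168394, chr6:32845209-32853978) was at 30.9, 38 and 42.3 CPM in IGROV1Res, against 23.4, 17.2 and 17.9 CPM in IGROV1Sen, a log2 fold change of 0.93 ± 0.15 (adjusted p = 0.00148). TAP2 (ENSG00000204267, chr6:32821833-32838780) was at 16.7, 18.4 and 24.1 CPM in IGROV1Res, against 12.5, 8.32 and 9.6 CPM in IGROV1Sen, a log2 fold change of 0.96 ± 0.19 (adjusted p = 0.00389). Both chains of the transporter were thus higher in every IGROV1Res library than in any IGROV1Sen library. ERAP2 (ENSG00000164308, chr5:96875939-96919716) was at 30.7, 33.1 and 32.4 CPM in IGROV1Res, against 23.1, 21.5 and 21.8 CPM in IGROV1Sen, a log2 fold change of 0.54 ± 0.09 (adjusted p = 0.00193). TAPBP (ENSG00000231925, chr6:33299694-33314387) averaged 93.2 ± 5.97 CPM in IGROV1Res and 78.4 ± 2.85 CPM in IGROV1Sen (SD), a log2 fold change of 0.25 (adjusted p = 0.0387). That call was lost without any 1 of 5 libraries (adjusted p = 0.0539 to 0.136, all but IGROV1Res replicate 3), with upper-quartile scaling (0.0504) and with IGROV1Sen replicates 2 and 3 summed (0.102). ERAP1 averaged 25.9 ± 3.5 CPM in IGROV1Res and 22.7 ± 2.39 CPM in IGROV1Sen and did not pass (log2 fold change 0.19, adjusted p = 0.306). Other proteins that help to fold or load class I, taken from a wider pathway list after their values were seen, did not all move this way. PDIA3 (ERp57) fell, at 342 ± 17.1 CPM in IGROV1Res and 475 ± 35.9 CPM in IGROV1Sen (log2 fold change -0.48, adjusted p = 0.00246), as did CALR (calreticulin, -0.32, adjusted p = 0.0386). CANX (calnexin) rose (0.34, adjusted p = 0.00983), and TAPBPL, a relative of tapasin, averaged 6.56 ± 1.52 CPM in IGROV1Res and 7.03 ± 0.0793 CPM in IGROV1Sen (adjusted p = 0.722).

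TAP1, TAP2, TAPBP, HLA-B and HLA-C all lie on chromosome 6, where the median log2 fold change over 680 tested genes was 0.11. HLA-B and HLA-C thus moved in the opposite direction to TAP1, TAP2 and TAPBP on the same chromosome. The interferon-stimulated response element, read here by its core of GAAA, any 2 bases and GAAA on either strand, is shown for B2M, TAP1, TAP2 and ERAP2 because these genes rose, and for HLA-F because it fell with the same core. Stretches of B2M at chr15:44711357-44711486 (+ strand), TAP1 at chr6:32853816-32853845 (- strand), TAP2 at chr6:32838778-32838807 (- strand), ERAP2 at chr5:96876460-96876489 (+ strand) and HLA-F at chr6:29723274-29723303 (+ strand) are from RefSeq on GRCh38.p14, written 5′ to 3′ of the gene, with each core in capitals (TTTC, any 2 bases and TTTC where it lies on the other strand). The stretches of TAP1, TAP2, ERAP2 and HLA-F were kept to 30 bases around the core, since transcripts annotated in GENCODE start upstream of these RefSeq starts.
B2M: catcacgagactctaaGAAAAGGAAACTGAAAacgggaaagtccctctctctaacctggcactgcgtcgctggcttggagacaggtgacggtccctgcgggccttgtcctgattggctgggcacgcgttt
TAP1: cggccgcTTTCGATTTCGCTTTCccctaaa
TAP2: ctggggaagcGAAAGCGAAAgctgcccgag
ERAP2: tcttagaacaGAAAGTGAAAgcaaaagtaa
HLA-F: agagTTTCTCTTTCtctcccaacccgtgtc
B2M and TAP1 each hold 2 cores that overlap, so that their capitals run on as 1 block, and the other genes hold 1.

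Among the transcription factors, IRF1 rose, IRF2 fell, and the other 5 did not pass. Thus 14.3% were called in each direction, beside 17.4% of all tested genes higher and 18.3% lower. IRF1 (ENSG00000125347, chr5:132481609-132490798) activates class I and many interferon-induced genes. It was at 7.67, 9.04 and 8.2 CPM in IGROV1Res, against 4.56, 3.96 and 3.85 CPM in IGROV1Sen, a log2 fold change of 1.01 ± 0.17 (adjusted p = 0.00142). IRF1 was the gene of the set with the largest increase, and its groups lay well apart. Its exons share 1716 bases with C5orf56 on the other strand, which had 53 counts in all libraries together. IRF2, which binds the same element and can repress it, was at 13.9, 11.3 and 13.5 CPM in IGROV1Res, against 17.4, 19.2 and 18.4 CPM in IGROV1Sen, a log2 fold change of -0.51 ± 0.12 (adjusted p = 0.0118). That call was lost without IGROV1Res replicate 2 (adjusted p = 0.0525) or IGROV1Sen replicate 2 (0.0559). IRF2 lies on chromosome 4, where the median log2 fold change over 471 tested genes was -0.22. NLRC5, the transactivator of class I genes, was at 1.97, 4.97 and 3.71 CPM in IGROV1Res, against 4.72, 5.42 and 5.04 CPM in IGROV1Sen. IGROV1Res replicate 1 was far below the rest, and the log2 fold change of -0.51 ± 0.29 did not pass (adjusted p = 0.211).

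STAT2 and IRF9, partners in the complex that binds the response element after type I interferon, varied within the groups. STAT2 was at 58.5, 58.1 and 38.6 CPM in IGROV1Res, against 30.4, 52.5 and 55.3 CPM in IGROV1Sen (log2 fold change 0.16, adjusted p = 0.607). The low library of each group was the one with the low mitochondrial share, and without both of these the log2 fold change of STAT2 was 0.11 (adjusted p = 0.266). IRF9 had 34, 19 and 16 counts in IGROV1Res and 12, 49 and 51 counts in IGROV1Sen, a log2 fold change of -0.67 ± 0.48 (adjusted p = 0.305). Its exons share 1838 bases with AL136295.5 on the same strand, which had 114 counts in all libraries together, so the split of reads is uncertain. IGROV1Sen replicate 1 stood below all 3 IGROV1Res libraries for IRF9, and without it the log2 fold change was -1.05 (adjusted p = 0.0296). Without both libraries of low mitochondrial share IRF9 did not pass (-0.84, adjusted p = 0.067). The part of the mitochondrial share in these 2 genes was not tested. IRF3 and IRF7, which switch on interferon genes after virus sensing, had log2 fold changes of 0.20 (adjusted p = 0.136) and 0.25 (adjusted p = 0.476).

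Of the interferon receptor chains, 1 of 4 rose and 1 fell (25% each, beside 17.4% of all tested genes higher and 18.3% lower). For interferon gamma, IFNGR2 fell and IFNGR1 rose. IFNGR2 (ENSG00000159128, chr21:33402896-33479348), the signal-transducing chain, was at 14.3, 16.5 and 14.8 CPM in IGROV1Res, against 29.6, 25.8 and 25.1 CPM in IGROV1Sen, a log2 fold change of -0.82 ± 0.12 (adjusted p = 0.000607). Its exons share 380 bases with TMEM50B on the other strand, which had 2135 counts in all libraries together. IFNGR1, the ligand-binding chain, was at 26.8, 35.1 and 36.1 CPM in IGROV1Res, against 26.9, 23.9 and 20.8 CPM in IGROV1Sen, a log2 fold change of 0.46 ± 0.14 (adjusted p = 0.0332). The groups of IFNGR1 overlapped by 1 library each, and its call was lost without IGROV1Res replicate 2 or 3 (adjusted p = 0.114 and 0.108), without IGROV1Sen replicate 2 or 3 (0.0881 and 0.129) and with those IGROV1Sen libraries summed (0.0976). For type I interferon, IFNAR1 was at 47.7, 45.6 and 45.3 CPM in IGROV1Res, against 40.2, 40.5 and 38 CPM in IGROV1Sen. The groups did not overlap, but the log2 fold change of 0.22 ± 0.08 missed the threshold (adjusted p = 0.0572). It passed without a composition factor in the scaling (0.24, adjusted p = 0.044) and without the libraries of low mitochondrial share (0.25, adjusted p = 0.0453). IFNAR2 averaged 4.67 ± 1.07 CPM in IGROV1Res and 5.65 ± 0.848 CPM in IGROV1Sen (adjusted p = 0.375).

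**Figure D3:**
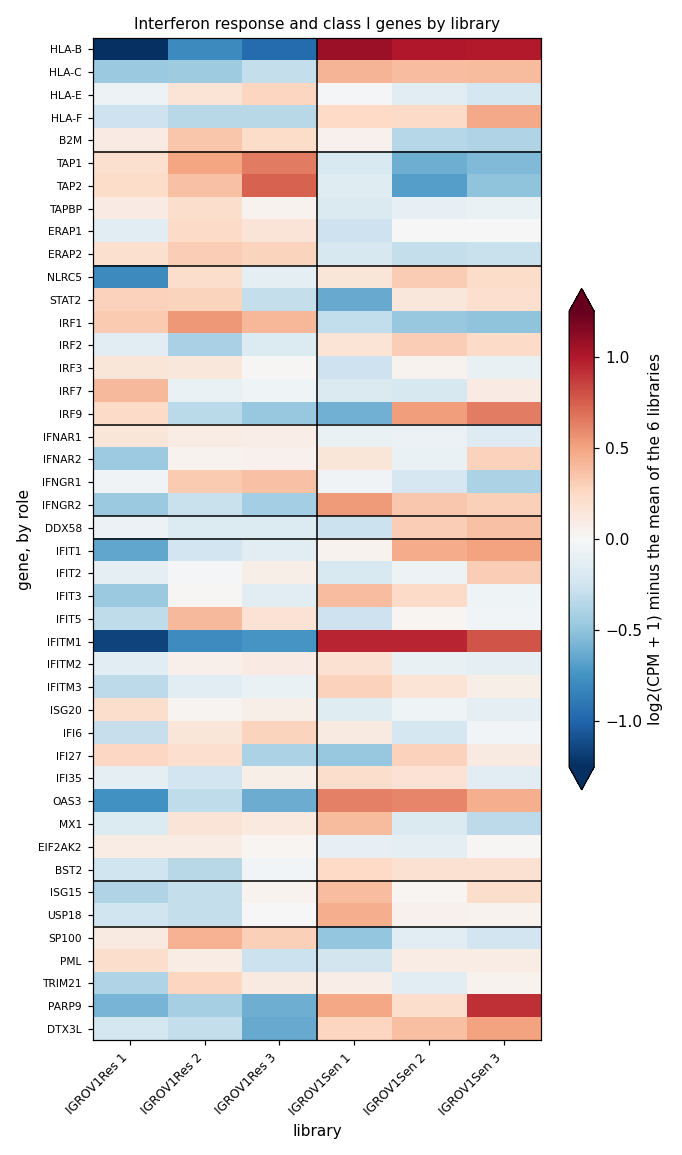
Log2(CPM + 1) of the 44 tested genes in each library (columns, IGROV1Res left of IGROV1Sen), less the mean of the 6 libraries, with red above and blue below that mean and lines between the role groups. HLA-B, IFITM1 and OAS3 are blue in all IGROV1Res libraries and red in all IGROV1Sen libraries, TAP1, TAP2 and IRF1 show the reverse, and IRF9 and STAT2 change colour within a group.

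The antiviral effectors are the end products of the interferon response. IFITM1, OAS3, BST2, IFITM3 and IFIT1 fell, and none of the 15 tested effectors was called higher. Thus 33.3% were called lower and 0% higher, beside 18.3% and 17.4% of all tested genes. The other 10 did not pass, and of the 15 log2 fold changes 7 were above 0 and 8 below. The cores of the response element of IFITM1 at chr11:313990-314019 (+ strand), OAS3 at chr12:112938314-112938351 (+ strand) and IFIT1 at chr10:89392463-89392545 (+ strand) (GRCh38.p14, RefSeq, capitals as above) are shown because these genes carried the element and fell.
IFITM1: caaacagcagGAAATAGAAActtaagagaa
OAS3: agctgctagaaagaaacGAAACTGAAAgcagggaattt
IFIT1: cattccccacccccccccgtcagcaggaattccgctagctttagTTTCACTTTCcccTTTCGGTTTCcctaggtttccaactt
IFIT1 holds 2 cores in this stretch and the others 1. Outside the stretches shown, a further core lies at -6 to 4 of the RefSeq start in IFITM1 and at -12 to -3 in OAS3. The stretch of IFITM1 was kept to 30 bases around the core for the same reason as that of TAP1.

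IFITM1 (ENSG00000185885, chr11:313506-315272), a membrane protein that blocks virus entry, was at 2.27, 3.22 and 3.36 CPM in IGROV1Res, against 13.1, 13.1 and 11.6 CPM in IGROV1Sen, a log2 fold change of -2.09 ± 0.19 (adjusted p = 4.31e-05). Its neighbours and close paralogs did not follow to the same size. IFITM2 was at 118, 136 and 139 CPM in IGROV1Res, against 148, 122 and 119 CPM in IGROV1Sen (log2 fold change 0.02, adjusted p = 0.925). IFITM3 was at 82.1, 94.4 and 97.7 CPM in IGROV1Res, against 127, 117 and 109 CPM in IGROV1Sen, a log2 fold change of -0.36 ± 0.10 (adjusted p = 0.0155). IFITM1 and IFITM2 share 351 annotated exon bases and all 3 are similar in sequence, so the split of reads between them is uncertain.

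OAS3 (ENSG00000111331, chr12:112938352-112973249), which makes the signal that activates RNase L, was at 7.82, 11 and 8.69 CPM in IGROV1Res, against 22.1, 21.9 and 19.5 CPM in IGROV1Sen, a log2 fold change of -1.20 ± 0.15 (adjusted p = 0.000312). BST2 (ENSG00000130303, chr19:17402939-17405648), or tetherin, which holds budding viruses at the cell surface, was at 211, 197 and 244 CPM in IGROV1Res, against 298, 286 and 286 CPM in IGROV1Sen, a log2 fold change of -0.42 ± 0.09 (adjusted p = 0.00727). BST2 had the highest level of the set per kilobase of exon, at 194 CPM per kb in IGROV1Res and 259 CPM per kb in IGROV1Sen. IFIT1, which binds viral RNA, was at 2.19, 3.22 and 3.57 CPM in IGROV1Res, against 4.17, 5.88 and 6.1 CPM in IGROV1Sen, a log2 fold change of -0.85 ± 0.25 (adjusted p = 0.0246). The call of IFIT1 was lost without IGROV1Res replicate 1 or 2, without IGROV1Sen replicate 2 or 3, and with those IGROV1Sen libraries summed (adjusted p = 0.0613 to 0.0991).

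The other 10 effectors tested included IFITM2 and did not pass, with log2 fold changes between -0.49 for IFIT3 (adjusted p = 0.154) and 0.34 for ISG20 (adjusted p = 0.306). EIF2AK2, the RNA-activated kinase PKR, was at 102, 102 and 97.9 CPM in IGROV1Res, against 89.2, 88.2 and 97 CPM in IGROV1Sen. Its groups did not overlap, but the log2 fold change of 0.14 did not pass (adjusted p = 0.194). MX1, IFIT2, IFIT5 and ISG20 averaged under 2 CPM in both groups, so differences in them were hard to detect at this depth. IFI27 and IFI6, often used to mark an interferon response, had log2 fold changes of 0.04 (adjusted p = 0.941) and 0.12 (adjusted p = 0.656).

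DDX58, the RNA sensor RIG-I, was at 3.21, 2.94 and 2.94 CPM in IGROV1Res, against 2.67, 4.49 and 4.69 CPM in IGROV1Sen (log2 fold change -0.39, adjusted p = 0.254). As with IRF9, IGROV1Sen replicate 1 stood below the IGROV1Res libraries, and without it the log2 fold change was -0.60 (adjusted p = 0.0391). ISG15, a ubiquitin-like protein induced by interferon, was at 9.57, 10.2 and 13.2 CPM in IGROV1Res, against 17, 12.9 and 15.1 CPM in IGROV1Sen. The groups overlapped through IGROV1Res replicate 3, and the log2 fold change of -0.45 ± 0.16 did not pass (adjusted p = 0.0618). ISG15 passed without IGROV1Res replicate 3 (-0.59, adjusted p = 0.03), without both libraries of low mitochondrial share (-0.50, adjusted p = 0.0284) and with the likelihood ratio test (adjusted p = 0.04). USP18, which removes ISG15 and damps interferon signalling, averaged 3.29 ± 0.493 CPM in IGROV1Res and 4.56 ± 0.953 CPM in IGROV1Sen (log2 fold change -0.47, adjusted p = 0.138).

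PARP9 and DTX3L, whose products form a complex of an ADP-ribosyltransferase-like protein and a ubiquitin ligase, fell together. PARP9 (ENSG00000138496, chr3:122527924-122564577) was at 1.02, 1.26 and 0.981 CPM in IGROV1Res, against 3.22, 2.51 and 4.69 CPM in IGROV1Sen, a log2 fold change of -1.67 ± 0.31 (adjusted p = 0.00268). DTX3L (ENSG00000163840, chr3:122564238-122575203) was at 3.58, 3.36 and 2.45 CPM in IGROV1Res, against 5.43, 5.95 and 6.59 CPM in IGROV1Sen, a log2 fold change of -0.94 ± 0.21 (adjusted p = 0.00673). These genes run in opposite directions from RefSeq starts 38 bases apart, their promoter entries share 137 bases, and their annotated exons overlap by 217 bases, so they are not independent observations. The median log2 fold change on chromosome 3 was -0.27. SP100, a component of PML nuclear bodies, rose, at 14.8, 18.8 and 17 CPM in IGROV1Res, against 9.44, 12.4 and 11.3 CPM in IGROV1Sen, a log2 fold change of 0.61 ± 0.15 (adjusted p = 0.0113, and 0.0536 without IGROV1Res replicate 2). PML itself averaged 33.9 ± 5.88 CPM in IGROV1Res and 33 ± 4.23 CPM in IGROV1Sen (adjusted p = 0.864), and TRIM21, a cytosolic antibody receptor and ubiquitin ligase, 4.48 ± 1.2 CPM in IGROV1Res and 4.39 ± 0.434 CPM in IGROV1Sen (adjusted p = 0.926).

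RefSeq promoter entries were at hand for 38 of the 48 genes, 50 entries in all and up to 3 for a gene. A gene was counted as holding a motif where any of its entries did. The core of the interferon-stimulated response element was held by 25 of these 38 genes (65.8%), against 4.38% of all 27305 genes with an entry. It was found in 5 of the 8 genes called higher, in 8 of the 11 called lower that had an entry, in 10 of 15 not called and in 2 of the 4 not counted. The cores of PARP9 and DTX3L, both called lower, are the same bases of the genome, counted once for each gene. The 23 tested genes with the core ranged from -2.09 to 0.96 in log2 fold change, with a median of 0.04, and the 11 without it from -2.13 to 1.01, with a median of -0.20. Genes with the core were thus found at both ends of the range. The gamma-activated sequence, read as TTC, any 3 bases and GAA, was held by 9 of the 38 genes (23.7%), against 9.38% of all genes with an entry, and its matches can overlap those of the core, as in IFI27. A match is a run of letters and was not tested as a site. The core was matched exactly, so an entry without it, such as that of HLA-B or HLA-C, may still hold a variant of the element.

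**Figure D4:**
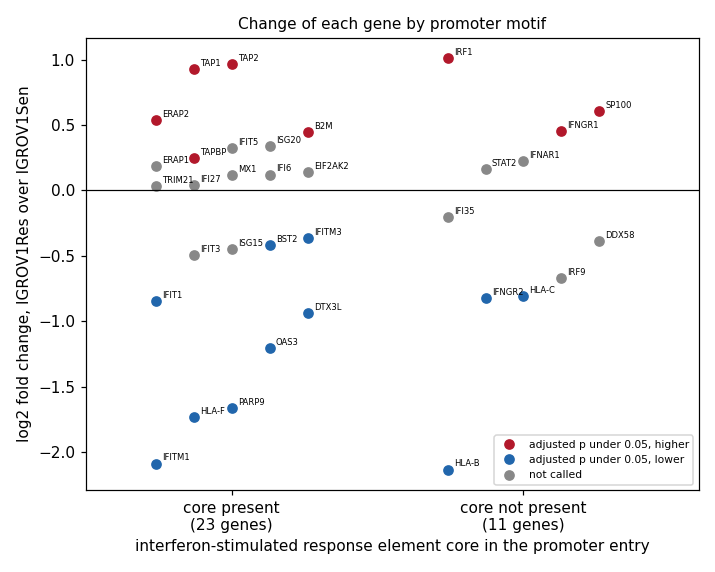
Log2 fold change of IGROV1Res over IGROV1Sen (y axis) of the 34 tested genes with a RefSeq promoter entry, split by whether the entry holds the core of the interferon-stimulated response element, with red for genes called higher, blue for genes called lower and grey for genes that did not pass. The 23 genes with the core reach from IFITM1 (-2.09) to TAP2 (0.96), and the 11 without it from HLA-B (-2.13) to IRF1 (1.01).

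A wider list of 119 other genes of the interferon and class I pathways was counted in the same fit. None of its 10 interferon genes, IFNB1, IFNA1, IFNG and IFNL1 among them, was in the table of counted genes. Of the 70 genes tested, 17 were higher (24.3%) and 14 lower (20%), beside 17.4% and 18.3% of all genes, and their median log2 fold change was -0.03. Of 19 tested genes of the class I and antigen-processing group 5 were higher and 6 lower, of 11 signalling genes 1 and 2, of 10 nucleic acid sensors 1 and 2, and of 30 other interferon-induced genes 10 and 4.

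The genes of that list with the smallest adjusted p among those called higher were the apolipoproteins APOL1 and APOL2, PNPT1 and MICB. APOL1 averaged 24.7 ± 6.26 CPM in IGROV1Res and 2.92 ± 0.517 CPM in IGROV1Sen, a log2 fold change of 3.08 (adjusted p = 1.19e-05), above that of any of the 44 genes. APOL2 averaged 22.4 ± 1.71 CPM in IGROV1Res and 9.68 ± 0.317 CPM in IGROV1Sen (1.21, adjusted p = 7.39e-05). PNPT1, a mitochondrial RNA-degrading enzyme, averaged 111 ± 4.71 CPM in IGROV1Res and 65.4 ± 12.2 CPM in IGROV1Sen (0.76, adjusted p = 0.00131). MICB, a stress-induced ligand of the NK cell receptor NKG2D, averaged 78.8 ± 8 CPM in IGROV1Res and 45.2 ± 8.22 CPM in IGROV1Sen (0.80, adjusted p = 0.00143). Among those called lower were PARP14, PIAS1, RFX5 and TRIM38. PARP14, which like PARP9 lies on chromosome 3, averaged 12.9 ± 0.727 CPM in IGROV1Res and 28.1 ± 5.25 CPM in IGROV1Sen (-1.12, adjusted p = 0.000469). PIAS1, an inhibitor of STAT signalling, averaged 69.2 ± 6.65 CPM in IGROV1Res and 105 ± 7.96 CPM in IGROV1Sen (-0.60, adjusted p = 0.00135). RFX5, a factor of MHC promoters, averaged 82.3 ± 3.5 CPM in IGROV1Res and 118 ± 11.3 CPM in IGROV1Sen (-0.52, adjusted p = 0.00195), and TRIM38 averaged 10.7 ± 0.848 CPM in IGROV1Res and 18.4 ± 2.24 CPM in IGROV1Sen (-0.78, adjusted p = 0.00198).

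Several further genes, chosen after their values were seen, belong to antigen presentation or to the same families. PSMB9, the immunoproteasome subunit whose start lies 488 bases from the nearer RefSeq start of TAP1, had 79, 182 and 214 counts in IGROV1Res, against 60, 29 and 28 counts in IGROV1Sen. Its log2 fold change was 1.98 ± 0.42 (adjusted p = 0.0056), and IGROV1Res replicate 1 and IGROV1Sen replicate 1 came closest to each other, as they did for TAP1. Other proteasome genes of the wider list did not all follow. PSMB10 (0.46, adjusted p = 0.169), PSME1 (-0.22, adjusted p = 0.159) and PSME2 (-0.13, adjusted p = 0.349) did not pass. PSME3 rose (0.42, adjusted p = 0.0134), and PSMB8 was not counted. The non-classical chain HLA-G had 1, 5 and 3 counts in IGROV1Res, against 14, 16 and 15 counts in IGROV1Sen (-2.28, adjusted p = 0.00411). It fell in the direction of HLA-B and HLA-F, and its reads were few, as were those of HLA-F. CD74, the invariant chain of MHC class II and one of the leukocyte markers above, had 14, 24 and 17 counts in IGROV1Res and 1, 1 and 2 counts in IGROV1Sen. APOL6 had 36 counts in IGROV1Res and 2 in IGROV1Sen, a ratio of 18.1 per total counts (95% counting interval 4.67 to 155, counting error only).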

How the data were processed

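RNA was sequenced from IGROV1Res and IGROV1Sen cells, 3 libraries each. The authors deposited raw read counts per Ensembl gene that had passed quality control, by a rule the sources do not give. The submitters' processing notes name edgeR and hg18, and the aligner and the counting tool are not given in the sources used here. A further table by the authors pairs identifiers with symbols and carries their own fold changes and p-values for this contrast. It gave gene symbols only (13200 genes), and its values were not used.

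The tools were edgeR 4.0.16 under R 4.3.3. filterByExpr (minimum count 10, minimum total 15) left 13791 genes, libraries were scaled by TMM, and the contrast was fitted by glmQLFit and tested by glmQLFTest (edgeR), with Benjamini-Hochberg adjustment over all tested genes, called at 0.05. Coordinates came from GENCODE 29 by Ensembl identifier. Promoter sequences came from RefSeq (GRCh38.p14) by symbol. DESeq2 1.42.0, a likelihood ratio test, other scalings and filters, a replicate block and leave-one-out fits were the alternatives.

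The members and lists were chosen with earlier results of these data known. The rule for full statistics was the class I chains and, in each other role group, at most 3 called genes, by smallest adjusted p, and at most 2 called the other way. Further genes of the set, called and not called, were given in the same detail after their values were seen. Up to 4 genes in each direction were named from the wider list.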

Additional observations from a re-analysis of the deposited data

How the results depend on the processing

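Of the 20 called genes, 13 kept their call in every one of up to 16 alternatives (tools, scalings, filters, the replicate block, each library left out, both libraries of low mitochondrial share left out, and IGROV1Sen replicates 2 and 3 summed). These were TAP1, TAP2, ERAP2 and IRF1, higher, and HLA-B, HLA-C, HLA-F, IFITM1, IFNGR2, OAS3, BST2, PARP9 and DTX3L, lower. HLA-F, IFIT2 and MX1 were not tested with a minimum of 10 counts in every library. None of the 20 changed sign. Of the 24 genes not called, 5 passed in some alternative (HLA-E, IRF9, IFNAR1, DDX58 and ISG15) and 8 changed sign in some. Same-numbered libraries of the 2 groups did not all deviate together (correlations -0.465, 0.113 and -0.474), so the numbers were not taken as pairs. Libraries of unlike number did in part. IGROV1Res replicate 3 and IGROV1Sen replicate 1, the libraries of low mitochondrial share, stood at 0.61. IGROV1Res replicate 1 stood at 0.394 and 0.365 with IGROV1Sen replicates 2 and 3. The remaining such pairs stood at -0.127, 0.0937 and -0.521. The cause of this pattern was not tested. With the replicate block 5 of the set were higher (8 without), 1530 of all genes were higher (2394 without), and 11 genes of the wider list were higher and 8 lower (17 and 14 without). With the block B2M, TAPBP, IRF2, IFNGR1 and IFITM3 lost their calls (adjusted p = 0.0531 to 0.112). With IGROV1Sen replicates 2 and 3 summed, 5 of the set were higher and 8 of the wider list lower, and IFITM2 (-0.035) and MX1 (-0.0081), not called, changed sign. At an adjusted p under 0.01 the counts were 4 of the set higher, 1373 and 1584 of all genes higher and lower, and 8 of the wider list lower. With a log2 fold change of at least 1 as well as the threshold of 0.05, they were 1 and 5 of the set, 620 and 811 of all genes, and 6 and 2 of the wider list, higher and lower. Leaving out 1 library gave 4 to 8 of the set higher (4 without IGROV1Res replicate 2, 5 without IGROV1Sen replicate 2 or 3) and 10 to 14 lower, 1538 to 3023 and 1814 to 2992 of all genes, and 12 to 19 and 8 to 13 of the wider list. Over the same fits the log2 fold change of genes not called ran from -0.058 to 0.34 for STAT2, -0.28 to 0.23 for IFIT2, -0.043 to 0.12 for IFITM2, -0.0073 to 0.29 for IFI6, -0.20 to 0.28 for IFI27, -0.15 to 0.65 for MX1, -0.070 to 0.17 for PML and -0.13 to 0.23 for TRIM21. The cause of these changes was not tested. Genes under 2 CPM are limited by depth, and HLA-F rests on 4 to 18 counts per library.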
